A study of Mus musculus with 6 samples.

Results

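Acyl-CoA thioesterases hydrolyse acyl-CoA, the activated form of a fatty acid, into a free fatty acid and coenzyme A. The 10 genes described here are Acot1, Acot2, Acot3, Acot4, Acot7, Acot8, Acot9, Acot11, Acot12 and Acot13, out of 47069 genes counted in subcutaneous white adipose tissue (SC-WAT) of Egr1-/- and Egr1+/+ mice. They were listed by gene symbol, and the list was selected on measured values, namely the counts of this comparison of Egr1-/- with Egr1+/+ mice, so the differences between genotypes below are a description of these mice and not a separate test. All 10 genes were found among the counted identifiers, and 8 of them passed the filter on low counts. Acot3 and Acot12 did not pass.

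RNA came from inguinal fat pads of female mice aged 2 weeks, 3 of them Egr1+/+ and 3 Egr1-/-, and gave 1 library per mouse. Egr1 encodes a zinc finger transcription factor. The line carries a LacZ insertion in the 5′ untranslated region of Egr1 together with a frameshift before the sequence encoding the DNA-binding domain. Both genotypes were on a C57BL/6 J background. The mutation is present in the whole animal and not only in fat, and whole fat pads were used. The mice came from several litters, 1 Egr1+/+ and 1 Egr1-/- mouse were littermates, and the labels do not say which.

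The family falls into 2 unrelated structural types. Type I enzymes (Acot1 to Acot6) have an alpha/beta-hydrolase fold, and type II enzymes (Acot7 to Acot13) have a hotdog fold. Their products are placed in different compartments. Acot1 and Acot7 are cytosolic, Acot2, Acot9 and Acot13 are associated with mitochondria, and Acot3, Acot4 and Acot8 are peroxisomal. Acot11, also called Them1 or BFIT, was described in brown fat and carries a lipid-binding START domain. Acot12 is a START-domain enzyme known for acetyl-CoA hydrolysis in liver. Thioesterases act against the acyl-CoA synthetases, which load fatty acids onto coenzyme A, and several type I genes are known targets of the nuclear receptor PPAR-alpha.

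The libraries held 29661984 to 42357981 counts each, of which 50.0% to 66.3% lay in mitochondrial genes, and 2624 to 4653 counts per mouse fell on the 10 members. Egr1 itself was counted 353, 241 and 711 times in Egr1+/+ and 103, 84 and 57 times in Egr1-/- mice, so the labels and the target gene went the same way. Levels are given as CPM, counts scaled to library size by the trimmed mean of M-values. Markers of white adipocytes summed to 7447 to 8032 CPM in Egr1+/+ and 6221 to 7277 CPM in Egr1-/- mice. The 6 brown and beige adipocyte markers, none of which was at 0 in every mouse, summed to 485 to 636 CPM and 871 to 1459 CPM. The sum of 8 skeletal muscle markers was 988, 2968 and 187 CPM in Egr1+/+ and 90.8, 325 and 2458 CPM in Egr1-/- mice. Egr1+/+ replicate 2 and Egr1-/- replicate 3 thus had the highest muscle sums, 1 in each genotype, and are called muscle-rich below. Single muscle markers did not all follow the sum. Myh1, Myh2 and Mb were higher in Egr1+/+ replicate 1 than in Egr1+/+ replicate 2 (Myh1 134 against 26.9 CPM).

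The type I genes stand in a row on the plus strand of chromosome 12 (GRCm38), and stretches shared between copies limit how their reads can be divided, most of all for Acot1 and Acot2. Acot2 occupies positions 83987861 to 83993873, followed by Acot1 (84009490 to 84018371), Acot4 (84038379 to 84048601), Acot3 (84052144 to 84060402) and then Acot5 and Acot6. The Acot1 and Acot2 proteins shared 91.9% of residues, counted over the shorter protein. Their coding sequences shared an unbroken stretch of 273 bases, longer than a read. The pair of 150-base coding windows below, both from the plus strand, is shown because it crosses the edge of that stretch. The first 90 bases lie before it, with the 14 differing bases in capitals, and the last 60 bases lie within it.
Acot2, chr12:83992638-83992787: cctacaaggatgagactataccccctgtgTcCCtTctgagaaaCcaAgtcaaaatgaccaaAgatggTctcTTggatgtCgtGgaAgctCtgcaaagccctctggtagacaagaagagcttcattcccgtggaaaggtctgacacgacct
Acot1, chr12:84016916-84017065: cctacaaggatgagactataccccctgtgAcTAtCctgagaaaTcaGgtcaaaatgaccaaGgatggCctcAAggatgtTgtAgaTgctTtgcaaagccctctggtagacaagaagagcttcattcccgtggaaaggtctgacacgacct

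Of all 50-base words in the merged exons of Acot2, 24.5% also occurred in Acot1, and 13.6% of those of Acot1 occurred in Acot2. A read from the first 90 bases can be assigned by the capital letters, while a single read from within the last 60 bases fits both genes. The labels describe single-end reads and the methods paired-end reads. With paired ends, a mate outside the shared stretch could assign such a fragment, so the percentages of shared words describe single reads. The same holds for Acot9, a mitochondrial type II enzyme on the X chromosome (155262443 to 155297654, plus strand), and Acot10, a single-exon copy on chromosome 15. Their proteins were 96.1% identical, and 15.2% of the Acot9 words occurred in Acot10. The window of Acot9 joins 4 coding blocks, whereas that of Acot10 is unbroken and on the minus strand. The 3 differing bases are in capitals.
Acot9, chrX:155273140-155282075: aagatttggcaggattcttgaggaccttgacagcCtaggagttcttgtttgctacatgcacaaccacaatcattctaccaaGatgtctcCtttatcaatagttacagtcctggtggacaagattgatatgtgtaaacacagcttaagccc
Acot10, chr15:20666175-20666324: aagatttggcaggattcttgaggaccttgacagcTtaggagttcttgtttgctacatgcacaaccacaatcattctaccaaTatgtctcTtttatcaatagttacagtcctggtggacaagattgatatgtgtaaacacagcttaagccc

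Acot10 had 0 to 8 counts per mouse against 762 to 1259 for Acot9, and Acot5 had 0 to 8. For Acot1, Acot2, Acot3, Acot4 and Acot9 the counts are therefore given both gene by gene and summed with their copies. Acot3 and Acot4 shared 7.57% and 4.17% of their 50-base words with another family gene. Acot7 and Acot13 shared 0% of their 50-base words with another gene.

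**Figure D1:**
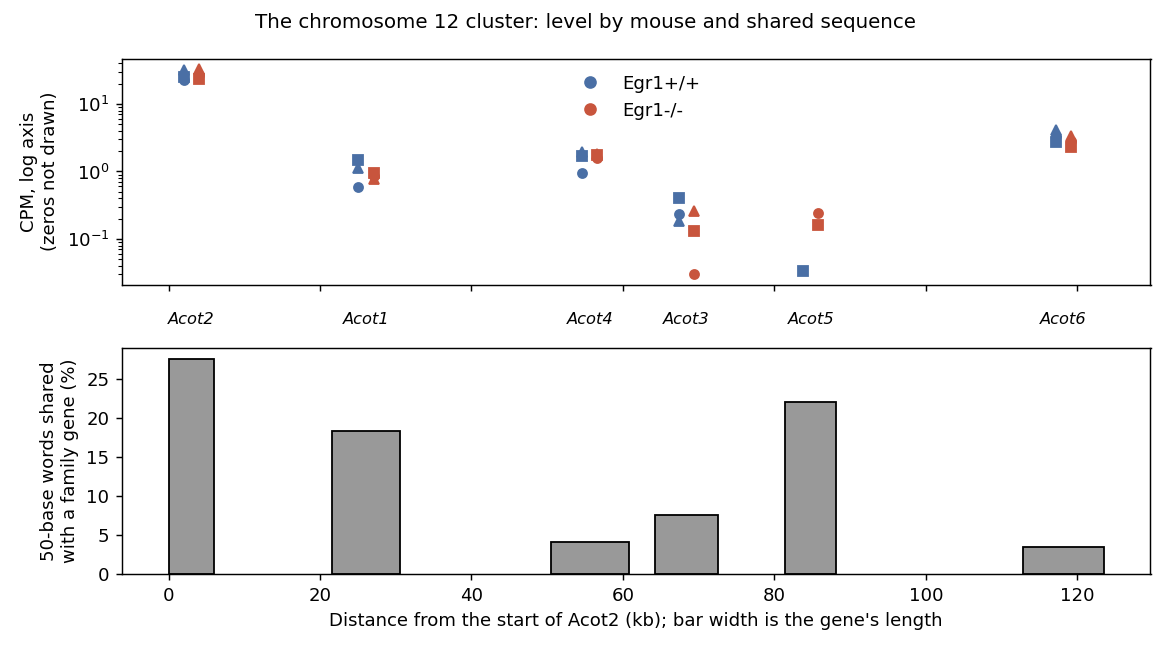
The chromosome 12 cluster of type I thioesterases, with distance from the start of Acot2 in kb on the x axis. The upper panel gives CPM on a log axis for each mouse (zeros not drawn), and the lower panel the percentage of 50-base words in each gene's exons that another family gene also holds. Acot2 lies above the other 5 genes in all 6 mice and has the highest shared percentage, 27.6%.

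Acot11 was the member with separated genotypes. It lies on the minus strand of chromosome 4 (106744555 to 106804998). The Egr1+/+ mice had 5.30, 4.13 and 3.60 CPM, from 182, 124 and 155 counts. The Egr1-/- mice had 12.4, 9.36 and 13.6 CPM, from 414, 290 and 422 counts. The lowest Egr1-/- mouse was above the highest Egr1+/+ mouse. The means were 4.34 ± 0.870 CPM (SD, n = 3) and 11.8 ± 2.21 CPM (SD, n = 3). On the log2 scale the difference was 1.45 (standard error 0.204, 95% interval 0.98 to 1.91), or 2.72-fold. With each mouse left out in turn, the log2 fold change ran from 1.32 to 1.60.

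In bulk tissue, more cells of a type and more RNA per cell cannot be told apart. The brown and beige adipocyte markers moved in the same direction as Acot11, with the summed values given above. Some other marker sums went the opposite way, with no overlap between genotypes, namely those of white adipocytes (above), stromal progenitors (325 to 331 against 192 to 263 CPM), macrophages (150.4 to 212 against 136 to 146 CPM), Schwann cells (133 to 219 against 89.0 to 115 CPM) and hepatocytes (8.24 to 9.59 against 4.07 to 5.76 CPM). The hepatocyte sum was mostly Alb, the only 1 of its 4 markers with 10 counts in every mouse. Not every marker separated by itself. Fabp4, Lpl, Cidec, Plin1, Ly6a, Csf1r, Lyz2 and Sox10 overlapped between genotypes, as did Cox7a1 among the brown and beige markers. Plin1 had a log2 fold change of 0.11. The part of these markers in the Acot11 difference was not tested. Ucp1, the uncoupling protein that defines thermogenic fat, had 400, 316 and 305 CPM in Egr1+/+ and 858, 571 and 949 CPM in Egr1-/- mice. Egr1-/- replicate 1, with the lowest sum of muscle markers, had 12.4 CPM of Acot11. The muscle-rich Egr1+/+ replicate 2 had 4.13 CPM, and the muscle-rich Egr1-/- replicate 3 had 13.6 CPM, the highest of all mice. Without the 2 muscle-rich libraries the log2 fold change of Acot11 was 1.30 (adjusted p 0.41 in edgeR's quasi-likelihood test). The part of muscle in the Acot11 difference was not tested. Fam151a lies on the opposite strand over 1263 exonic bases of Acot11, 20.9% of its exons, and had 0 to 2 counts in each mouse.

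**Figure D2:**
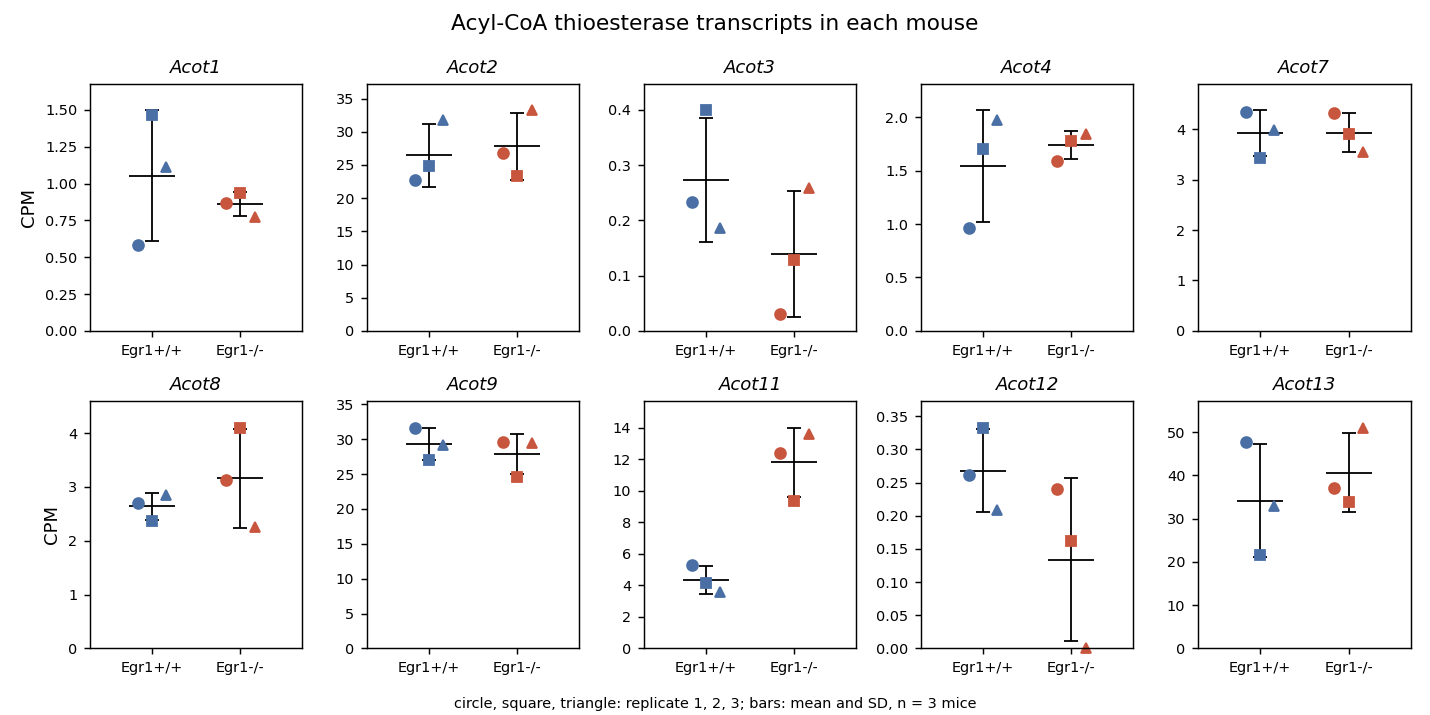
CPM (y axis, starting at 0, its own scale in each panel) of the 10 members in Egr1+/+ and Egr1-/- mice (x axis), with a symbol per mouse and the mean and SD (n = 3). Acot11 spans 3.60 to 5.30 CPM in Egr1+/+ and 9.36 to 13.6 CPM in Egr1-/- mice, and the 2 genotypes overlap in the other 9 panels.

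By likeness of pattern, measured as the distance between log2 CPM values centred over the 6 mice, the tested genes nearest to Acot11 were Trim67, Ucp1 and Adra1a, at distances of 0.30, 0.35 and 0.37. Adra1a encodes the alpha-1A adrenergic receptor, and Trim67 a tripartite motif protein. Trim67 had 5.73, 4.23 and 4.01 CPM in Egr1+/+ and 15.2, 12.5 and 16.3 CPM in Egr1-/- mice. Adra1a had 12.1, 11.6 and 9.65 CPM in Egr1+/+ and 27.5, 21.2 and 28.3 CPM in Egr1-/- mice. In all 4 genes, Egr1-/- replicate 2 was the lowest of the Egr1-/- mice, and Egr1-/- replicate 3 the highest. The 3 genes were picked by their distance over these same 6 mice. Their likeness to Acot11, with its gap between genotypes, therefore follows from the choice.

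**Figure D3:**
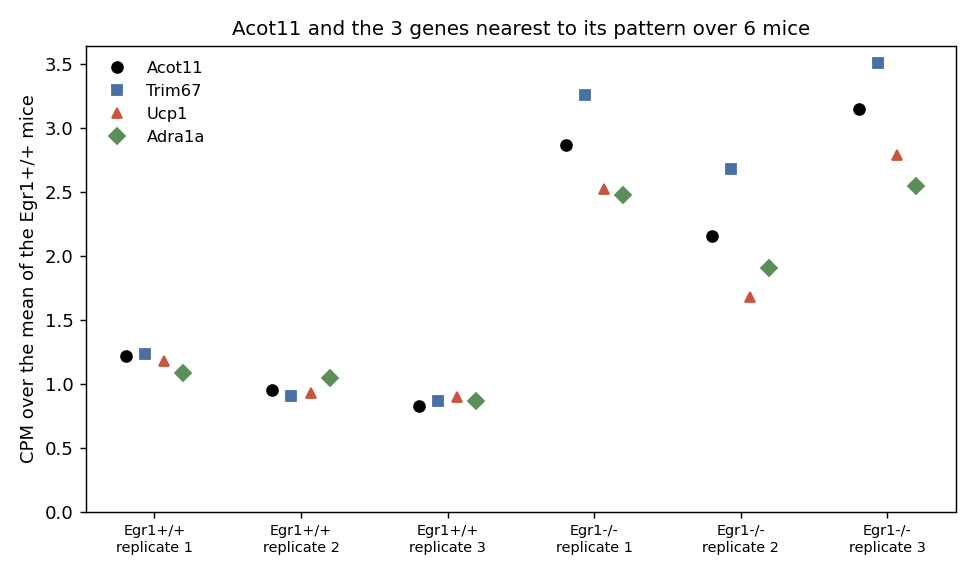
Acot11 and the 3 genes nearest to its pattern, as CPM over the Egr1+/+ mean (y axis) in each of the 6 mice (x axis). The symbols of all 4 genes lie lower in each Egr1+/+ mouse than in any Egr1-/- mouse, a likeness for which the 3 genes were picked.

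The RefSeq table held 2 start sites for Acot11, and their windows from 250 bases before to 50 bases after the start are shown because the mice differ in a DNA-binding factor. Both are on the minus strand (GRCm38.p6).
Acot11 start 1, chr4:106804958-106805257: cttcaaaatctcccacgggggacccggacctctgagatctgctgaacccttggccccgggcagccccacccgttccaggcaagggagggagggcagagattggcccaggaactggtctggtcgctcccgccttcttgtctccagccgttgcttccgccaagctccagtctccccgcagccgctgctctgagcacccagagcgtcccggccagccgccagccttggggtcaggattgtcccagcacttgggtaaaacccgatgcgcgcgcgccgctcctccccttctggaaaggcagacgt
Acot11 start 2, chr4:106799782-106800081: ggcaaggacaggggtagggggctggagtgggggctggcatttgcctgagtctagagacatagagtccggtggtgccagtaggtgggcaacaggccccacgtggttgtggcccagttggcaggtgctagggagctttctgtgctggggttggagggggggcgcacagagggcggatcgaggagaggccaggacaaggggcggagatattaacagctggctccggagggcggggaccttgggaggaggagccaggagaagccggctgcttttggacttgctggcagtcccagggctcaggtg

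The first window had 66.0% G and C and 20 CpG, and the second 64.7% and 9, against medians of 52.7% and 7 over 27025 promoters. The letters GCGTGGGCG or GCGGGGGCG, an EGR1 site, were searched on both strands and were in neither window. The promoter table gave windows for Acot1, Acot2, Acot3, Acot4, Acot5, Acot7, Acot8, Acot9, Acot10, Acot11, Acot12, Them4 and Them5, and those of Acot6, Acot13, Them6 and Baat were not analysed here. The EGR1 letters occurred in 3.49% of all promoters and, among the family genes searched, only in that of Acot12, shown here from the plus strand with the site at 57 bases before the start and a reverse-strand AGGTCA hexamer in capitals.
Acot12, chr13:91741271-91741570: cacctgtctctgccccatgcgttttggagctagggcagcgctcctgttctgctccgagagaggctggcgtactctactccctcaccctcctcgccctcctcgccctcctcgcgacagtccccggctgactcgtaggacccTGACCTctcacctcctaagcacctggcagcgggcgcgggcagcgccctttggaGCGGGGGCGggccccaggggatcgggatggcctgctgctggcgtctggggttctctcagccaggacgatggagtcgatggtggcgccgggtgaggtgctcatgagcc

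The hexamer AGGTCA, which nuclear receptors bind, occurred in 16.0% of all promoters and, among the same family genes, in those of Acot3, Acot4, Acot5 and Acot12. The full PPAR response element was searched only as 2 exact copies of this hexamer in the same orientation with 1 base between. It occurred in 0.0444% of promoters (12 of 27025) and in none of the family genes searched. Elements with a differing base, or outside these windows, were not searched, so their presence in the family was not tested. Acot12 had 9, 10 and 9 counts in Egr1+/+ and 8, 5 and 0 counts in Egr1-/- mice. The count of 0 in Egr1-/- replicate 3 allows a level of up to 0.0970 CPM (3 counts, counting error only), against 0.262, 0.333 and 0.209 CPM in the Egr1+/+ mice. Acot12 stayed below the filter on low counts, so its difference was not tested.

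Among the mitochondrial members, the values of the genotypes overlapped. Acot2 hydrolyses long-chain acyl-CoA in the mitochondrial matrix. It had 22.8, 24.8 and 31.8 CPM in Egr1+/+ and 26.8, 23.4 and 33.3 CPM in Egr1-/- mice. The log2 fold change was 0.07 (95% interval -0.31 to 0.45). The highest mouse in each genotype was replicate 3. Acot9 had 31.7, 27.0 and 29.2 CPM in Egr1+/+ and 29.7, 24.6 and 29.5 CPM in Egr1-/- mice. Here the log2 fold change was -0.07 (95% interval -0.34 to 0.20). Among the 8 tested members, Acot9 had the narrowest interval.

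Acot13, also called Them2, acts with the phosphatidylcholine transfer protein Pctp. It had 47.8, 21.7 and 33.0 CPM in Egr1+/+ and 37.0, 33.9 and 51.0 CPM in Egr1-/- mice. The log2 fold change was 0.25 (95% interval -0.35 to 0.85). The muscle-rich libraries were its lowest in Egr1+/+ and its highest in Egr1-/-, and without these 2 libraries the log2 fold change was -0.19. Pctp had a log2 fold change of 0.10 (95% interval -0.35 to 0.56). The gene nearest to Acot13 in pattern was Acadl, a long-chain acyl-CoA dehydrogenase, at a distance of 0.18. Acadl had 690.4, 303 and 449.7 CPM in Egr1+/+ and 572, 471 and 671 CPM in Egr1-/- mice, with the same order of the 6 mice as Acot13 apart from the 2 highest. Dpf3 and Rcor2 followed at 0.24 each. These genes too were picked for their likeness over the same mice.

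Nearest to Acot2 were Selenoo and Nupl2 at 0.15 each and Bcl2a1a at 0.15. Selenoo, a mitochondrial selenoprotein, had 8.82, 9.29 and 12.1 CPM in Egr1+/+ and 10.7, 9.97 and 13.2 CPM in Egr1-/- mice. Replicate 3 was again the highest mouse in each genotype, a likeness for which Selenoo was picked.

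The cytosolic members Acot1 and Acot7 also overlapped between genotypes. Acot1 was read 20, 44 and 48 times in Egr1+/+ and 29, 29 and 24 times in Egr1-/- mice, or 0.582, 1.46 and 1.11 CPM and 0.870, 0.936 and 0.776 CPM. All 3 Egr1-/- values lay within the range of the Egr1+/+ mice. The log2 fold change was -0.29 (95% interval -1.17 to 0.60). Without the 2 muscle-rich libraries it was 0.08. Acot7, which is abundant in brain, had 3.92 ± 0.458 CPM (SD, n = 3) in Egr1+/+ and 3.93 ± 0.384 CPM (SD, n = 3) in Egr1-/- mice. Its log2 fold change was 0.00 (95% interval -0.41 to 0.42). Summed markers of neurons were at 0.812 to 2.33 CPM in Egr1+/+ and 1.10 to 1.74 CPM in Egr1-/- mice.

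The peroxisomal members were low. Acot4, which prefers dicarboxylyl-CoA such as succinyl-CoA, had 33, 51 and 85 counts in Egr1+/+ and 53, 55 and 57 in Egr1-/- mice. Its log2 fold change was 0.17 (95% interval -0.54 to 0.87). Acot8, a broad-range peroxisomal enzyme on chromosome 2, had 93, 71 and 123 counts in Egr1+/+ and 104, 127 and 70 counts in Egr1-/- mice. Its log2 fold change was 0.26 (95% interval -0.31 to 0.83), and Snx21 lies on the opposite strand over 246 of its exonic bases. Acot3 had 8, 12 and 8 counts in Egr1+/+ and 1, 4 and 8 in Egr1-/- mice and was not tested. An antisense transcript, 4732463B04Rik, overlaps exons of Acot3 and Acot4 and had 6 to 20 counts per mouse.

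Summing the type I genes, Acot1 to Acot6, gave 27.9, 31.2 and 39.2 CPM in Egr1+/+ and 32.3, 28.7 and 39.5 CPM in Egr1-/- mice. The log2 fold change of the sum was 0.03 (95% interval -0.34 to 0.40), and it was -0.14 without the 2 muscle-rich libraries. Acot2 held most of the counts in this sum (782 of 960 in Egr1+/+ replicate 1), so the sum describes mainly Acot2. The sum of Acot9 and Acot10 gave -0.07. Another division of the counted reads among the copies would leave these sums as they are. Reads left uncounted because they fit several copies would be missing from both.

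**Figure D4:**
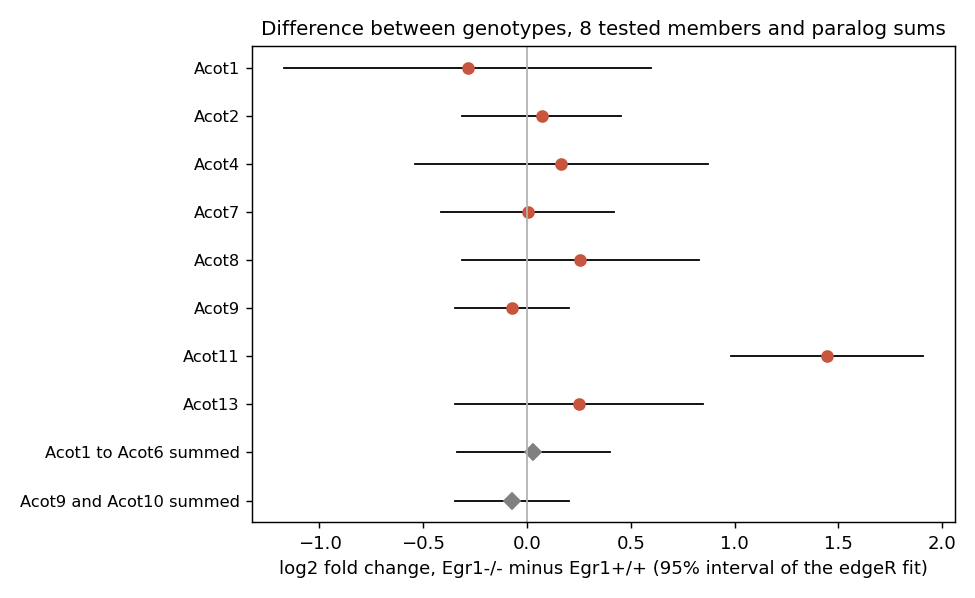
Log2 fold change (x axis, Egr1-/- minus Egr1+/+) with its 95% interval from the edgeR fit for the 8 tested members and for the 2 sums of paralogs (diamonds). The interval of Acot11 runs from 0.98 to 1.91, and the other 9 intervals include 0.

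Across the family, 0 of the 8 tested members had an adjusted p under 0.05 in edgeR's quasi-likelihood test, where 0.0170% of all 17667 tested genes did. In the same test the adjusted p was 0.0928 for Acot11, 0.0878 for Egr1 and 0.151 for Ucp1. The mutated gene itself was thus not called by it. At an unadjusted p under 0.05, 1 member (Acot11) was higher in Egr1-/- mice, against 5.06% of all genes, and 0 were lower, against 5.60%. DESeq2 called 1 member higher, again Acot11, and 0 lower, where it called 0.843% and 1.30% of genes. Genotypes did not overlap in 1 member in the higher direction (8.15% of all genes) and in 0 in the lower direction (8.10%). Since the list was chosen with this contrast known, nothing is read from these counts. The median log2 fold change of the 8 members was 0.12, with 6 above 0 and 2 below, and the median over all tested genes was 0.00.

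The spread between mice of a genotype differed from member to member. The coefficient of variation among Egr1+/+ mice was 7.91% for Acot9 and 11.7% for Acot7, and 38.3% for Acot13 and 42.2% for Acot1. The median over all tested genes was 14.9%. In Egr1-/- mice it was 9.36% for Acot1, 10.3% for Acot9 and 22.5% for Acot13, with a median of 15.7% over all genes. Acot11 had 20.1% and 18.7%, so its mice varied to a like degree in both genotypes.

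Levels of different members were compared per kb of merged exons. In Egr1+/+ mice Acot13 came first, at 45.9 ± 17.6 CPM per kb (SD, n = 3). Acot9 and Acot2 followed at 12.9 ± 1.02 and 12.1 ± 2.17 CPM per kb, and their ranges over mice overlapped. Acot7 (1.84), Acot8 (1.32) and Acot11 (0.717 ± 0.144) came next in mean CPM per kb, and the ranges of these 3 did not overlap. Acot1 (0.269) and Acot4 (0.231) overlapped, as did Acot12 (0.0814) and Acot3 (0.0793), again in mean CPM per kb.

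In Egr1-/- mice Acot11 stood at 1.95 ± 0.364 CPM per kb (SD, n = 3), the fourth highest mean, where its range overlapped those of Acot7 (1.85 ± 0.181) and Acot8 (1.58 ± 0.460). With the longest transcript as the length, Acot11 was at 2.08 CPM per kb in these mice and kept the sixth place. With the coding length it was at 6.30 CPM per kb (4.99 to 7.28 over the mice), above Acot7 (2.53 to 3.08) and Acot8 (2.36 to 4.27) without overlap, while in Egr1+/+ mice its range of 1.92 to 2.83 CPM per kb overlapped both. The place of Acot11 beside Acot7 and Acot8 therefore depended on the length used. Acot13 was first in both genotypes with each of the 3 lengths tried.

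As a share of the summed level per kb of the 10 members, the mitochondrial genes Acot2, Acot9 and Acot13 made up 91.7% to 94.9% in the 6 mice. Acot13 alone made up 51.5% to 68.9%. The share of Acot11 was 0.938%, 1.20% and 0.778% in Egr1+/+ and between 2.12% and 2.53% in Egr1-/- mice. Each Egr1-/- mouse exceeded each Egr1+/+ mouse in this share. It is computed from the Acot11 counts given above, so this gap is not a separate result. The peroxisomal members held 1.45% to 3.23%.

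**Figure D5:**
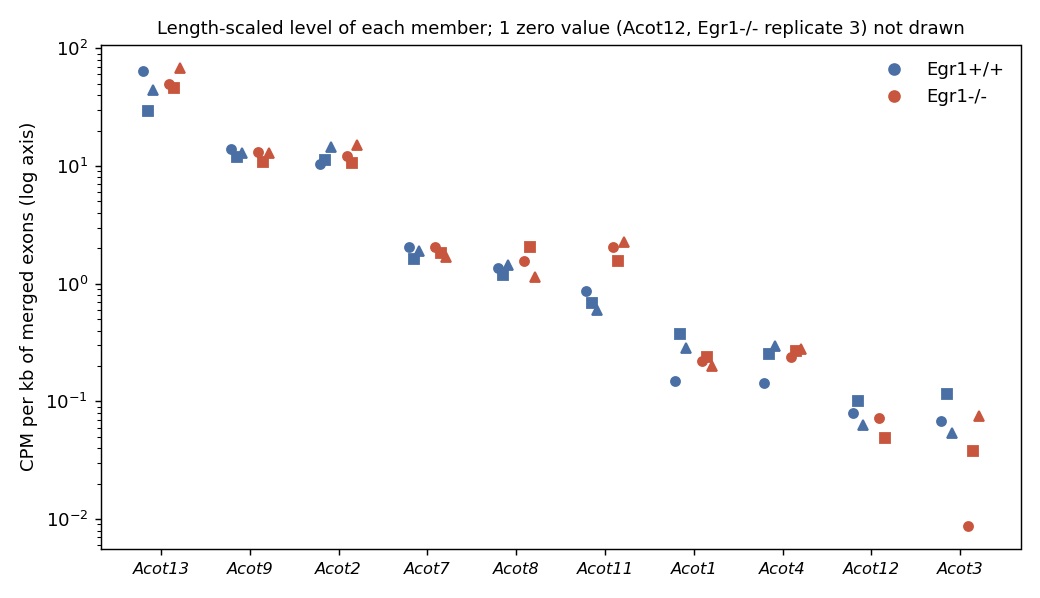
CPM per kb of merged exons (y axis, log scale) of each member in each mouse, ordered by the mean of the Egr1+/+ mice, with Egr1+/+ at the left and Egr1-/- at the right of each gene and the single 0 of Acot12 not drawn. Acot13 lies between 29.2 and 68.6 CPM per kb in the 6 mice, and Acot11 moves from below Acot7 and Acot8 in Egr1+/+ mice to their level in Egr1-/- mice.

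Of 7 further thioesterase genes, 3 passed the filter on low counts and 0 were called. Acot6 had 117, 83 and 176 counts in Egr1+/+ and 93, 71 and 104 in Egr1-/- mice. Its log2 fold change was -0.28 (95% interval -0.81 to 0.25). Them4 and Them6 had log2 fold changes of 0.14 and 0.17. Acot5, Acot10, Them5 and Baat, the bile acid conjugating enzyme, had 0 to 13 counts per mouse.

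The reactions on either side of the thioesterases were described with lists of neighbouring genes, in which edgeR called 0 genes in either direction. These lists were chosen with earlier results of these data known, so the counts from them are a description of these mice and not a test. Of 19 tested acyl-CoA synthetases, which work in the opposite direction, 4 had an unadjusted p under 0.05 and were higher in Egr1-/- mice (5.06% of all tested genes), and 0 were lower (5.60%). Their median log2 fold change was 0.17. Acsf2 had 11.6, 11.4 and 11.2 CPM in Egr1+/+ and 16.8, 14.6 and 16.1 CPM in Egr1-/- mice. The log2 fold change was 0.46 for Acss1 and 0.38 for Acsf3. Acsl1, a long-chain synthetase of adipocytes, had a log2 fold change of 0.38 (95% interval 0.04 to 0.72).

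Of 8 genes that move acyl groups on carnitine, 5 had an unadjusted p under 0.05 and were higher (5.06% of all genes), 0 were lower (5.60%), and the median log2 fold change was 0.47. DESeq2 called 3 of them higher, where it called 0.843% of all genes. Cpt1b, the muscle and brown fat form of the outer mitochondrial carnitine palmitoyltransferase, had 4.10, 5.99 and 4.45 CPM in Egr1+/+ and 7.77, 8.13 and 8.50 CPM in Egr1-/- mice. Crat, carnitine acetyltransferase, had a log2 fold change of 0.55, and Cpt2, the inner membrane enzyme, of 0.54. In Cpt1b, Crat and Cpt2 the genotypes did not overlap. These genes were named because they had the lowest p in this list, so their separation owes in part to the choice. Of the 8 genes, genotypes did not overlap in 5 in the higher direction (8.15% of all genes) and in 0 in the lower direction (8.10%).

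Of 17 peroxisomal oxidation genes, 4 were higher and 1 was lower at an unadjusted p under 0.05, against 5.06% and 5.60% of all genes. Their median log2 fold change was 0.21. The bifunctional enzyme Ehhadh had a log2 fold change of 0.50 and the transporter Abcd3 of 0.46, while Abcd2, another acyl-CoA transporter, had -0.33. Of the nudix hydrolases, which cut coenzyme A itself, Nudt7 had 22.9, 19.2 and 17.7 CPM in Egr1+/+ and 28.9, 25.4 and 33.7 CPM in Egr1-/- mice. Nudt19 had a log2 fold change of -0.16. Among 10 acyl-CoA binding proteins and partners, 1 was higher and 1 lower at the same unadjusted threshold (5.06% and 5.60% of all genes), with a median of 0.02. Fabp3 had a log2 fold change of 0.68, Dbi of -0.59 and Fabp5 of -0.34.

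Of 23 genes of the PPAR-alpha pathway, 12 were higher (5.06% of all genes) and 1 was lower (5.60%) at an unadjusted p under 0.05, and the median log2 fold change was 0.40. DESeq2 called 8 higher and 0 lower, against 0.843% and 1.30% of all genes. This list holds Ppara and Ppargc1a, which the authors had reported as increased in Egr1-/- mice. Since it was chosen with such results known, nothing is read from these counts. Ppargc1a, a thermogenic coactivator, had 32.1, 19.9 and 36.4 CPM in Egr1+/+ and 58.7, 48.4 and 79.7 CPM in Egr1-/- mice. The related Ppargc1b had a log2 fold change of 0.92, and Ppara itself of 0.82. The median log2 fold change thus stood at 0.40 for this list and at 0.12 for the thioesterases, and no test compared the lists. Between genotypes, the brown and beige adipocyte marker sum went the same way as the genes that were higher in these lists. Mouse by mouse the order was not always the same. Among Egr1+/+ mice, Cpt1b was highest in replicate 2 (5.99 CPM) and the marker sum in replicate 1 (636 CPM). The part of the marker sum was not tested.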

How the data were processed

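RNA of inguinal SC-WAT was depleted of ribosomal RNA and sequenced from strand-specific libraries, 1 per mouse. Per the labels and the methods, the authors aligned reads to GRCm38 with TopHat2 and Bowtie2 and counted reads per GENCODE gene with featureCounts. The strand and multiple-mapping settings of the counting were not given in the sources used here. The deposited values are raw counts per gene and mouse. The members and gene lists were chosen with earlier results of these data known.

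Identifiers were matched without version to GENCODE M21 for symbols, exons and coding sequence, and promoters came from the RefSeq table (GRCm38.p6). Counts were fitted over all genes with the quasi-likelihood test of edgeR 4.0.16 (R 4.3.3), TMM scaling, filterByExpr (minimum count 10) and Benjamini-Hochberg adjustment at 0.05. Standard errors were taken from the F statistic of the fit, and the 95% interval uses the t distribution of the fit. Patterns used log2 CPM with a prior count of 2. Libraries of 29661984 to 42357981 counts set the counting precision, and 3 mice against 3 cannot go below p = 0.1 in an exact two-sided permutation test. Fits were tested on simulated data. All members, further thioesterases by name, and for each list the 3 genes with the lowest p (none was called) were named, and Acsl1, Pctp, Ppara and Ucp1 as context. Nudt8 was not matched by that symbol. Alternatives were DESeq2 1.42.0, limma-voom 3.58.1, other scalings, no filter on low counts, a replicate block, summed paralogs, other gene lengths, leaving out each mouse, and, added after seeing the data, leaving out the 2 libraries with the most muscle transcripts. Figures were drawn with matplotlib 3.10.9.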

Additional observations from a re-analysis of the deposited data

How the results depend on the processing

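The log2 fold change of Acot11 kept its sign in 14 of 14 alternatives, from 1.30 to 1.60, and had an adjusted p under 0.05 in 2 of them, DESeq2 and edgeR without the filter on low counts. Those 2 settings each called 1 of the members, Acot11, and 9 and 15 genes of the neighbouring lists. Over all genes they called 333 of 15542 tested in DESeq2 and 552 of 38261 without the filter. Members and lists were chosen with earlier results known, so nothing is read from these counts. The main fit called 3 of 17667 genes. There were 1 in limma-voom, 0 with upper-quartile scaling, 0 with the replicate block and 0 without the 2 muscle-rich libraries. Leaving out 1 mouse gave 0 to 59 genes, the latter without Egr1-/- replicate 1. The cause was not tested. Same-numbered mice had correlations of -0.09, 0.11 and -0.13 in their deviations from the genotype means, and the block changed the call of 0 members. With 3 mice per genotype, these correlations cannot decide whether same-numbered mice shared a litter.

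Among the other 7 tested members, differences were at most about as large as their standard errors, and 6 changed sign under at least 1 alternative. With 1 mouse left out, log2 fold changes ran from -0.59 to 0.012 for Acot1, -0.077 to 0.22 for Acot2, -0.098 to 0.39 for Acot4, -0.082 to 0.071 for Acot7, 0.030 to 0.45 for Acot8, -0.12 to 0.016 for Acot9 and 0.011 to 0.55 for Acot13, from 0.018 to 0.22 for the members' median, and from -0.10 to 0.18 for the summed Acot1 to Acot6. Without the muscle-rich libraries, values were 0.078 for Acot1, -0.12 for Acot2, -0.016 for Acot7, -0.19 for Acot13 and -0.14 for the sum. In the fit with paralogs summed, the feature that holds Acot1 had 0.031. Dividing by coding length left 6 of 10 members at the same rank as merged exons. Depth limits Acot3 and Acot12, with 0 to 12 counts per mouse.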
